A study of Mus musculus with 12 samples.

Results

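The comparison described here sets 3 cerebellar microglia libraries kept with IL-34 against 3 cerebellar libraries kept with CSF-1, 6 of the 12 libraries in the series. Microglia are the resident macrophages of the brain. The cells were primary wild-type mouse microglia, and the deposited values are labelled as neonatal microglia. They came from mixed glial cultures, in which neural tissue is grown until microglia can be collected from a layer of other glia. Exposure lasted 24 hours, and CSF-1 was given at 20 ng/ml but IL-34 at a higher dose, 100 ng/ml. The series describes its cultures as independent and names no mouse strain. Human tissue is mentioned in the protocol for RNA extraction, whereas every sample is labelled as mouse. The other 6 libraries, 3 for each ligand at the same doses and time, came from forebrain cultures and are used to share the estimate of spread, to set the same contrast beside the cerebellar one and to test whether the 2 regions differed. Every group received a ligand, so a value that is lower with IL-34 is equally a value that is higher with CSF-1, and ligand and dose cannot be told apart.

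IL-34 and CSF-1 are unrelated in sequence but bind the same receptor tyrosine kinase, the product of Csf1r, which microglia need to survive and divide. The bound receptor recruits adaptors and kinases, and among its outputs is the RAS and ERK cascade, which raises transcription of growth genes and, with them, of phosphatases and inhibitors that damp the cascade again. In the brain IL-34 is made largely by forebrain neurons, and CSF-1 is known as the main ligand for microglia in the cerebellum.

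Values are TPM, a measure of relative transcript abundance corrected for length, summed over the transcripts of a gene, and between 11807 and 11904 genes reached 1 TPM in each cerebellar library. The IL-34 libraries held more short transcripts. The share of TPM from those shorter than 600 nt was 0.0277, 0.4375 and 0.555% with CSF-1 but 2.5824, 3.3112 and 0.9466% with IL-34. Tests with limma on log2(TPM + 1), all two-sided, were therefore run in 2 ways, on all transcripts and on transcripts of 1000 nt or more after smooth dependence on length and on GC content had been subtracted in every library. In the fit on all transcripts the median difference ran from 0.41 in genes under 800 nt to -0.20 in the class of longest genes. In the fit on long transcripts it lay between -0.02 and 0.00 in every length class, which follows from the subtraction of the length trend.

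**Figure D1:**
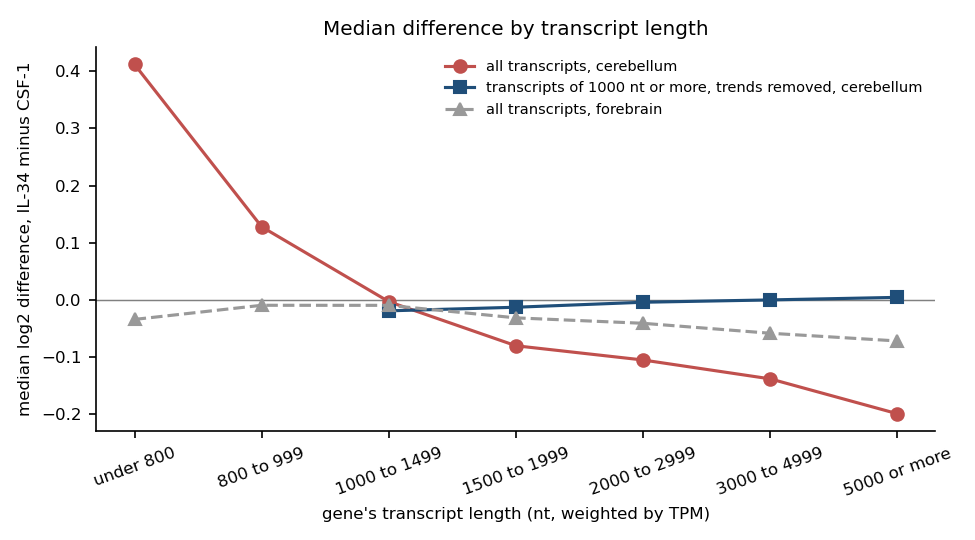
Median log2 difference between IL-34 and CSF-1 (vertical axis) in classes of genes by transcript length (horizontal axis), for the cerebellar fit on all transcripts (red), the cerebellar fit on long transcripts with trends removed (blue) and the forebrain fit on all transcripts (grey). The red line falls from 0.41 to -0.20 with length. The blue line stays near 0 because the length trend was subtracted before that fit.

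A gene was taken as changed, here called passed, when its adjusted p was under 0.05 in both fits with the same sign. Of 11215 genes measured in both, 703 (6.27%) passed, 140 higher with IL-34 (1.25%) and 563 lower (5.02%), and the cerebellar libraries of the 2 ligands did not overlap in 700 of them. By comparison 36.2% of all genes tested did not overlap between the groups, 8.21% higher and 27.9% lower. Alone, the fit on all transcripts called 1593 of 12419 genes (12.8%), 373 higher and 1220 lower (9.82%), and the fit on long transcripts called 1527 of 11486 (13.3%), 748 higher and 779 lower (6.78%). Differences were mostly modest, with a median of 0.36 on the log2 scale among the higher genes and -0.41 among the lower, and 9 of the higher and 36 of the lower genes differed by more than 2-fold in their means. The split depends on scaling: median-of-ratios scaling, which moves the median of all genes from -0.10 to -0.00, gave 366 higher and 380 lower in both fits, and quantile normalization gave 190 and 506. It also depends on single libraries, since 190 genes passed without IL-34 library 2, 247 without CSF-1 library 1, 350 without CSF-1 library 2 and 421 without CSF-1 library 3. A set of 167 genes (1.49%) passed in each of the 12 refits that leave out 1 library, 22 higher and 145 lower, and 164 of these also passed under both other scalings. Genes are described below as held where they belong to this set. Each of these refits leaves out 1 library, so held does not mean that a call stayed without IL-34 libraries 1 and 2 together. Most held calls did not stay in that fit, which kept 1 cerebellar IL-34 library. Without IL-34 libraries 1 and 2 together, which had the most short transcripts, 38 genes passed, 31 of them shared with the 703.

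The cells carried microglial transcripts at high levels in all 6 libraries. The 9 microglial markers summed to 7390 to 7480 TPM with CSF-1 and 6910 to 7420 TPM with IL-34, although P2ry12, a purine receptor of resting microglia, lay between 7.10 and 9.81 TPM. Astrocyte markers summed to 17.1 to 19.8 TPM with CSF-1 and 14.5 to 15.7 TPM with IL-34, and oligodendrocyte lineage markers to 90.1 to 99.7 and 74.7 to 80.7 TPM, with 1 of 4 tested markers of that lineage, Cspg4, lower in both fits. Endothelial markers summed to 12.2 to 12.9 and 9.87 to 11.8 TPM and mesenchymal markers to 6.26 to 7.83 and 4.73 to 5.19 TPM. Markers of choroid plexus and ependyma summed to 16 to 27 TPM with CSF-1 and 10.3 to 40.1 TPM with IL-34. Most of this was Ttr, at 17.1, 13.4 and 24.7 TPM with CSF-1 and 21, 8.95 and 38 TPM with IL-34. In forebrain Ttr reached at most 0.57 TPM. Neuronal markers stayed at or below 0.704 TPM in sum, with Neurod1 and Cbln1 at 0 in all 6 libraries. The granulocyte marker S100a8 and the lymphocyte marker Nkg7 were listed at 0 in all 6 libraries, but genes of short transcripts that most cells use, such as Cox8a, were listed at 0 in the CSF-1 libraries too, so a listed 0 does not show absence. Markers of border macrophages summed to 1720 to 2000 TPM with CSF-1 and 2140 to 2390 TPM with IL-34, nearly all of it from Ms4a7 (log2 difference 0.25, adjusted p = 0.0569), and none of the 4 tested passed. The part of these other cells in the results was not tested, and in bulk RNA fewer cells of a type and less RNA per cell cannot be told apart.

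The shared receptor did not pass. Csf1r stood at 1320, 1330 and 1250 TPM with CSF-1 and at 1220, 1150 and 1200 TPM with IL-34, and the log2 difference was -0.13 on all transcripts (adjusted p = 0.145) and 0.01 on long transcripts (adjusted p = 0.753). Csf1 itself lay at 10.1, 9.23 and 9.39 TPM with CSF-1 and at 8.92, 15.9 and 11.5 TPM with IL-34, with overlapping groups. Il34 reached at most 0.222 TPM in any cerebellar library, and Ptprz1, a phosphatase reported to bind IL-34, at most 0.257 TPM. Sdc1, which encodes the proteoglycan syndecan-1, had values of 7.69 to 9.36 TPM with CSF-1 and 8.94 to 12.1 TPM with IL-34. Trem2, a lipid-sensing receptor of microglia, had values of 850 to 863 and 854 to 932 TPM, and neither gene passed.

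Among receptors for the other colony-stimulating factors, Csf3r and Csf2rb were higher with IL-34. Csf3r, the receptor for G-CSF, stood at 40.7, 44.1 and 44.0 TPM with CSF-1 and at 68.5, 66.6 and 67.6 TPM with IL-34. All IL-34 libraries lay above all CSF-1 libraries, a 1.57-fold difference (log2 0.64, SE 0.0605, adjusted p = 0.000302) that held. Csf2rb, the signalling subunit shared by the receptors for GM-CSF, IL-3 and IL-5, had 62.4, 63.2 and 59.2 TPM with CSF-1 and 74.3, 73.7 and 74.6 TPM with IL-34. Its groups did not overlap (log2 0.26, adjusted p = 0.0314), but the call was lost when any 1 of the 6 cerebellar libraries was left out. Its close copy Csf2rb2 passed only on long transcripts (log2 0.32, adjusted p = 0.00164), and reads may be shared between these copies. Of 9 ligands, receptors and co-receptors of this family measured in both fits, 2 were higher and 0 lower, against 1.25 and 5.02% of all genes.

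Of 33 adaptors, kinases and brakes that act just below the receptor, 0 were higher and 5 lower in both fits. All 5 differed by small amounts, and of all genes 1.25% were higher and 5.02% lower in both fits. On long transcripts alone 2 were higher and 5 lower, against 6.51 and 6.78% of all genes. Dok2, an adaptor that restrains RAS signalling, fell from 158, 162 and 167 TPM to 116, 120 and 120 TPM. The groups were well apart (log2 -0.45, adjusted p = 0.000721), and the call held. Lyn, a SRC family kinase of macrophages, Plcg2, a phospholipase downstream of immune receptors, and Sh2b3, an inhibitory adaptor, had log2 differences of -0.31, -0.25 and -0.31, and none of these 3 held. Plcg2 and Sh2b3 lost the call under median-of-ratios scaling in at least 1 fit.

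Many genes that ERK signalling is known to raise were lower with IL-34. Of 20 such targets and feedback inhibitors measured in both fits, 12 were lower and 0 higher, against 5.02 and 1.25% of all genes, and 9 of the 12 held. The list was chosen with earlier results of these data known. It leaves out Egr1, an early gene induced by growth factors, which was higher (log2 0.65) and is described below. The median of the list was -0.42 on all transcripts, against -0.10 for all genes, and -0.31 on long transcripts, against -0.00. Median-of-ratios scaling called 9 lower on all transcripts and quantile normalization 12. Without IL-34 libraries 1 and 2 together, 4 passed in both fits and 9 on long transcripts alone.

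Ccnd1 encodes cyclin D1, which drives cells into the division cycle, and lies at chr7:144929931-144939925 on the minus strand of GRCm38. It stood at 49.7, 49.0 and 50.8 TPM in the CSF-1 libraries and at 25.2, 16.1 and 22.4 TPM in the IL-34 libraries. Every IL-34 library lay far below every CSF-1 library, and the means differed 2.34-fold (log2 -1.21, SE 0.144, adjusted p = 0.00138 on all transcripts and -1.09, adjusted p = 0.000288 on long transcripts). Plau, the secreted protease urokinase, had 14.4, 14.7 and 12.8 TPM with CSF-1 and 7.70, 5.45 and 6.22 TPM with IL-34. Again every IL-34 library was below every CSF-1 library, by 2.16-fold in the means (log2 -1.01, SE 0.11, adjusted p = 0.000787). Its receptor Plaur went from 233, 268 and 276 TPM to 196, 214 and 204 TPM (log2 -0.34, adjusted p = 0.023), a smaller fall that was lost without CSF-1 library 2 or 3, without IL-34 library 1 or 2 and under median-of-ratios scaling. Fosl1, the AP-1 subunit FRA-1, had 9.01, 10.2 and 8.46 TPM with CSF-1 and 4.19, 5.01 and 4.54 TPM with IL-34, a 2.01-fold difference without overlap (log2 -0.87, adjusted p = 0.00853). Myc, the growth-promoting transcription factor, had 81.4, 82.6 and 87.5 TPM and 56.4, 55.2 and 57.5 TPM, 2 narrow groups far apart (log2 -0.56, SE 0.0598, adjusted p = 0.000721).

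The feedback arm of the cascade was lower alongside these targets. Dusp5, a nuclear phosphatase that inactivates ERK, stood at 31.5, 28.9 and 30.8 TPM with CSF-1 and 19.5, 19.7 and 19.1 TPM with IL-34 (log2 -0.62, adjusted p = 0.000792). Dusp6, the cytoplasmic ERK phosphatase, had 129, 122 and 121 TPM and 96.7, 89.6 and 101 TPM (log2 -0.37, adjusted p = 0.00853). Neither pair of groups overlapped, and both calls held, as did those of Dusp4, Etv5 and Spred1 (log2 -0.42, -0.40 and -0.55). Etv5 is an ETS factor that follows ERK activity, and Spred1 and Spred2 encode inhibitors of RAS activation. Spred2 (log2 -0.53) and the phosphatase gene Dusp7 (log2 -0.48) also passed but did not hold, each losing the call without several single libraries, among them each CSF-1 library in turn. The 8 members that did not pass were Spred3, Spry2, Phlda1, Ier3, Spry1, Il1rn, Hbegf and Egr2. Among them the early transcription factor Egr2 had 11.5, 9.43 and 8.06 TPM with CSF-1 and 10.6, 14.1 and 10.2 TPM with IL-34, with overlap, and Spry2, another feedback inhibitor, was low at 2.60 to 2.99 and 1.73 to 2.58 TPM.

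**Figure D2:**
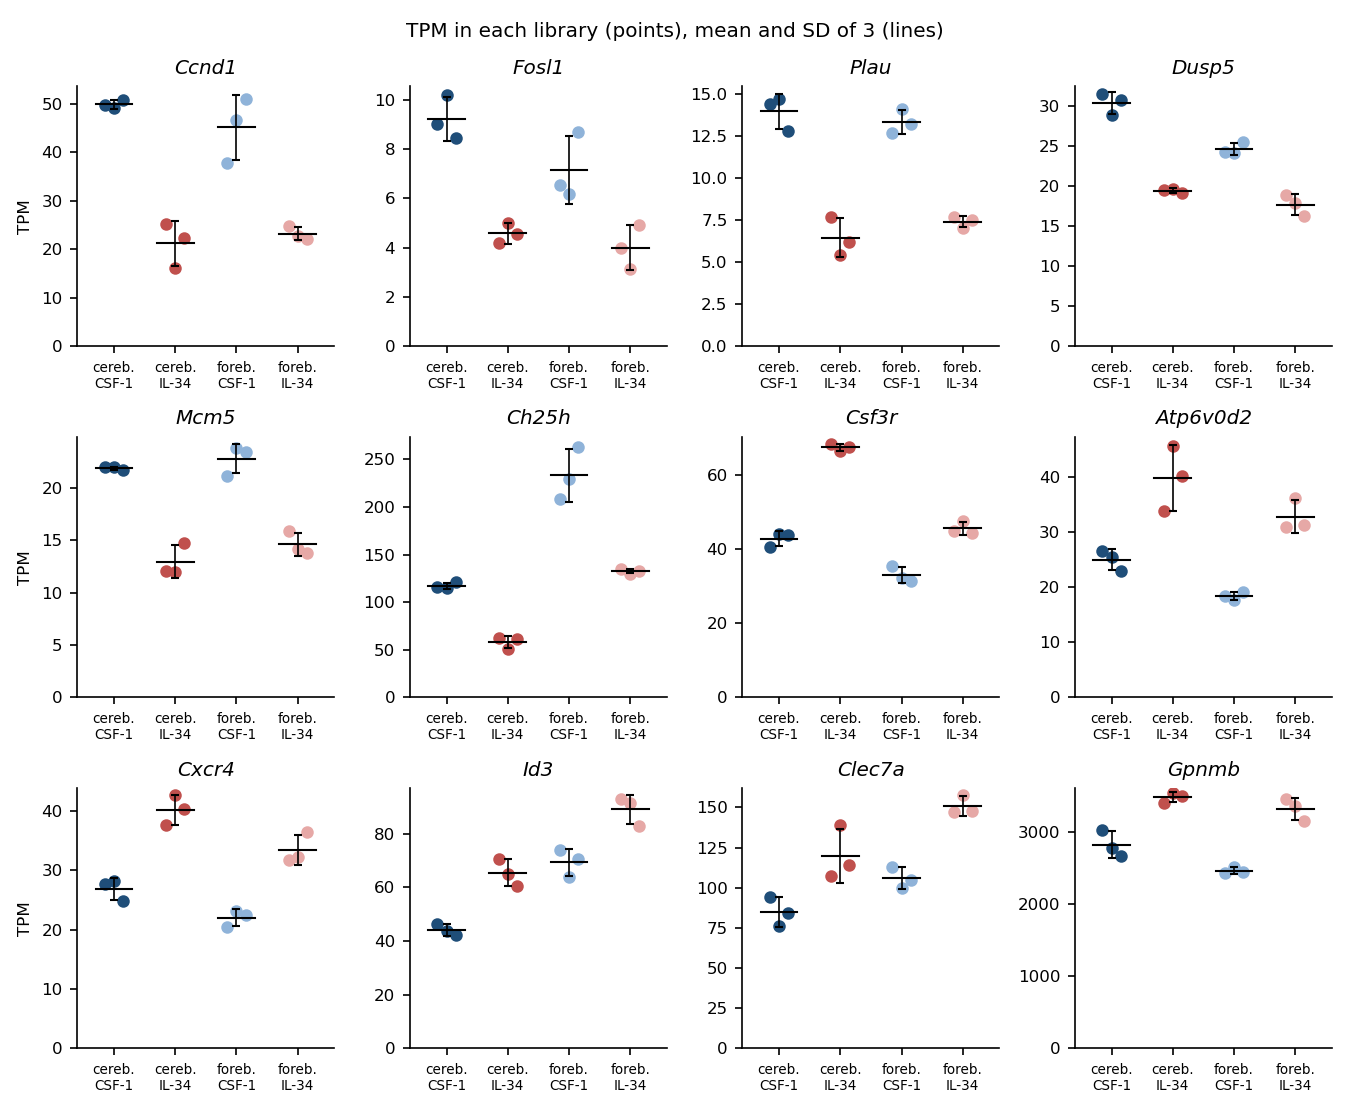
TPM (vertical axis, from 0) of 12 genes in every library of the 4 groups (horizontal axis); points are libraries, lines the mean and SD of 3. In the cerebellar groups Ccnd1, Fosl1, Plau, Dusp5, Mcm5 and Ch25h are lower with IL-34 in every library, and Csf3r, Atp6v0d2, Cxcr4, Id3, Clec7a and Gpnmb are higher in every library.

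Immediate early genes as a group did not follow this direction. Of 19 AP-1 and EGR genes measured in both fits, 1 was higher and 2 lower, against 1.25 and 5.02% of all genes. On long transcripts alone 5 were higher and 2 lower, against 6.51 and 6.78% of all genes. Median-of-ratios scaling also called 5 higher and 2 lower, on all transcripts. The median of the list was -0.00 on all transcripts and 0.08 on long ones. Egr1, a zinc finger factor that is induced within minutes by growth factors, was the 1 gene higher in both fits. It had 45.8, 49.0 and 42.8 TPM with CSF-1 and 62.6, 92.7 and 65.8 TPM with IL-34 (log2 0.65, adjusted p = 0.0122). The groups did not overlap, IL-34 library 2 was far above its fellows, and the call held. Klf2, a Kruppel-like factor that keeps macrophages quiescent, went the other way, from 62.8, 62.6 and 60.6 TPM to 43.6, 44.1 and 44.7 TPM (log2 -0.48, adjusted p = 0.00487), and held too. Fosl1 was the other lower member.

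Of 28 G1 cyclins, kinases, inhibitors and MYC partners, which govern entry into the division cycle, 6 were lower and 0 higher, against 5.02 and 1.25% of all genes. The median of the list was -0.20 on all transcripts and -0.06 on long ones. The lower genes were Ccnd1, Myc, Ccnd3, Max, Cdk6 and E2f8. Ccnd3, cyclin D3, had 53.5, 55.4 and 50.9 TPM with CSF-1 and 36.0, 36.4 and 38.5 TPM with IL-34, far beyond the spread in either group (log2 -0.52, adjusted p = 0.00225), and held. Cdk6, the kinase partner of D cyclins, went from 53.8, 40.4 and 39.9 TPM to 29.9, 17.9 and 23.4 TPM. Its log2 difference was -0.90 on all transcripts but -0.32 on long ones, and the call was lost without any CSF-1 library and without IL-34 library 2 or 3. E2f8, a repressor of the E2F family, was near 1 TPM with IL-34 (2.58, 2.24 and 2.86 TPM against 1.30, 0.78 and 0.818 TPM) and did not hold either.

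Of 56 genes of DNA replication and nucleotide supply, 10 were lower and 0 higher with IL-34, against 5.02 and 1.25% of all genes. Median-of-ratios scaling called 9 lower and 1 higher on all transcripts. The lower genes were Mcm2, Mcm4, Mcm5 and Mcm6, subunits of the helicase that opens DNA for replication, Orc6 of the origin recognition complex, the primase subunit Prim1, the chromatin assembly subunit Chaf1a, Uhrf1, which maintains DNA methylation at the fork, Tipin, which stabilises forks, and Dut, which clears dUTP. Mcm5 stood at 22, 22 and 21.7 TPM with CSF-1 and 12.1, 12 and 14.8 TPM with IL-34 (log2 -0.72, SE 0.0907, adjusted p = 0.00203). Mcm6 had 110, 110 and 108 TPM against 78.1, 87.6 and 84.0 TPM (log2 -0.39, adjusted p = 0.006). Both were lower in every IL-34 library, and of the 10 genes Mcm2, Mcm5 and Mcm6 held. Without single cerebellar libraries, between 3 and 11 members were lower, with 3 without IL-34 library 2 and 4 without CSF-1 library 1. Without IL-34 libraries 1 and 2 together, 0 passed in both fits and 3 on long transcripts alone.

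Promoters of such genes are known to carry sites for E2F factors, which D cyclins and their kinases release from repression. The promoter windows of 3 of the lower replication genes that held an E2F form are printed here for that reason, from 250 bases before to 50 after the start as RefSeq gives it on GRCm38.p6, 5′ to 3′ on the strand of the gene, with the matching letters in capitals. The forms searched on both strands were TTTGGCGC, TTTGCCGC, TTTCGCGC and TTTCCCGC, and matches may overlap. Mcm5 lies on the plus strand (chr8:75109259-75109558), Mcm6 on the minus strand (chr1:128359656-128359955) and Uhrf1 on the plus strand (chr17:56304063-56304362).
Mcm5: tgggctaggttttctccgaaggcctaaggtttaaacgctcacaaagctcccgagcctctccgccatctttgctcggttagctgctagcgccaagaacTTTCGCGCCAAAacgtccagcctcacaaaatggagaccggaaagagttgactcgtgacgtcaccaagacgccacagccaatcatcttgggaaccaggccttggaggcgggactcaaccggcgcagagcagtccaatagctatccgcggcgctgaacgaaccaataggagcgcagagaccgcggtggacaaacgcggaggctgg
Mcm6: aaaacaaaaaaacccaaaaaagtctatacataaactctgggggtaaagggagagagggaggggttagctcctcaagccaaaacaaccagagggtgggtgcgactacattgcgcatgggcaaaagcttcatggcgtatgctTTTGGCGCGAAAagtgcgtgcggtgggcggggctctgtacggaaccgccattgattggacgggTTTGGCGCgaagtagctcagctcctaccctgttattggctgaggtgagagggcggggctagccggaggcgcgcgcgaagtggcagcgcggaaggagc
Uhrf1: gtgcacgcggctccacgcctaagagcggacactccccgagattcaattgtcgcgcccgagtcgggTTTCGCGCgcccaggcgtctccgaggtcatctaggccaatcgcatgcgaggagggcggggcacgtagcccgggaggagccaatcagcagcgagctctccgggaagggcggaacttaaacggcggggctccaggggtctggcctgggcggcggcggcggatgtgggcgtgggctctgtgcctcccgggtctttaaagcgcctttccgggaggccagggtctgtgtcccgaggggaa
In Mcm5 the matches TTTCGCGC and GCGCCAAA overlap and begin 153 and 149 bases before the start. In Mcm6 the matches TTTGGCGC and GCGCGAAA overlap and begin 110 and 106 bases before the start, and another TTTGGCGC begins 47 bases before it. Uhrf1 had 2 windows, and 1 of them, the window printed here, held a form. Its match TTTCGCGC begins 185 bases before the start of that window's transcript. Over all 32851 windows, 2.26% held a form. By gene, 405 of 8404 measured in both fits and with a window held one (4.82%), 18 of 45 of the replication list (40%), 3 of 8 of its lower members, 27 of 419 of all lower genes (6.44%) and 0 of 95 of the higher genes. The windows of Mcm2, Orc6, Prim1, Chaf1a and Dut held none, and Mcm4 and Tipin had no window. These are matches of letters and not measured sites.

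Of 58 genes of mitosis and G2/M, 3 were lower and 0 higher, a share near the 5.02% of all genes. The median of the list was -0.21 on all transcripts and -0.14 on long ones, beside -0.20 and -0.17 for the replication list. Gtse1, a spindle and G2 protein, had 4.37, 4.99 and 5.13 TPM with CSF-1 and 2.28, 2.36 and 3.09 TPM with IL-34, without overlap (log2 -0.71, adjusted p = 0.0072), and held. Racgap1, needed for the cleavage furrow, and Nusap1, a spindle protein, did not hold, and Nusap1 was under 2 TPM in every cerebellar library.

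**Figure D3:**
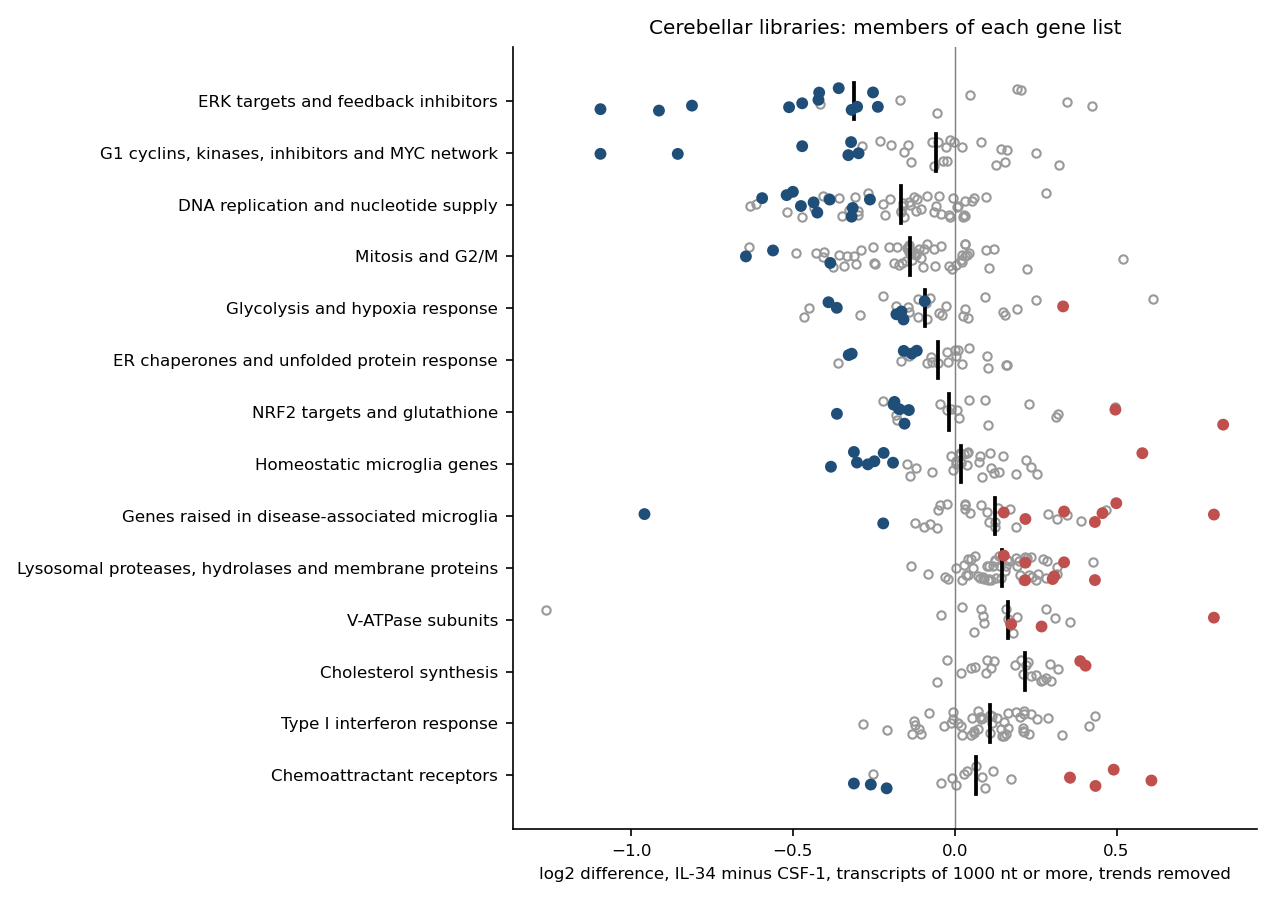
Log2 difference between IL-34 and CSF-1 in the cerebellar fit on long transcripts (horizontal axis) for the members of 14 gene lists (rows). Filled points passed both fits (red higher, blue lower with IL-34), open grey points did not, and black bars are list medians. Passed members of the ERK, cell cycle and replication lists lie to the left of 0, and those of the lysosome, V-ATPase and cholesterol lists to the right.

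Many lysosomal genes were higher on long transcripts. Of 58 lysosomal proteases, hydrolases and membrane proteins, 32 were higher and 0 lower in that fit, but 7 and 0 passed both, against 1.25% of all genes higher in both and 6.51% on long transcripts. The list's median was 0.06 on all transcripts and 0.15 on long ones. Ctss, cathepsin S, stood at 2670, 2530 and 2620 TPM with CSF-1 and 3030, 3050 and 3150 TPM with IL-34 (log2 0.24, adjusted p = 0.00523), with no overlap. It was the 1 member of the 7 that passed in all 12 refits, although it lost the call under quantile normalization, as did Ctsb, Ctsz, Lgmn and Cd68. Ctsb, Ctsz and Ctsh, further cathepsins, Lgmn, the protease legumain, and Cd63 and Cd68, membrane proteins of late endosomes, had log2 differences between 0.16 and 0.44. Without 1 cerebellar library the count of higher members ranged from 1, without IL-34 library 2, to 7.

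The vacuolar proton pump that acidifies lysosomes had 3 of 17 subunits higher and 0 lower in both fits and 10 higher and 1 lower on long transcripts. Of all genes, 1.25% were higher and 5.02% lower in both fits, and 6.51 and 6.78% on long transcripts. Without CSF-1 library 1 or IL-34 library 2, 1 subunit was higher in both fits. Atp6v0d2, the d2 subunit known from osteoclasts and fused macrophages, had 26.5, 25.5 and 22.9 TPM with CSF-1 and 33.7, 45.6 and 40.1 TPM with IL-34. Every IL-34 library lay above the CSF-1 libraries (log2 0.64, SE 0.107, adjusted p = 0.00687), and the call held. Atp6v0c and Atp6v1g1 passed with log2 differences of 0.48 and 0.25 and did not hold, and for Atp6v0c the value was 0.17 on long transcripts.

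Genes known to rise in disease-associated microglia split. Of 33, 7 were higher and 2 lower, against 1.25 and 5.02% of all genes. Gpnmb, a glycoprotein of phagocytic macrophages, stood at 3030, 2780 and 2670 TPM with CSF-1 and 3410, 3550 and 3500 TPM with IL-34 (log2 0.31, adjusted p = 0.0072). Clec7a, the beta-glucan receptor Dectin-1, had 94.5, 76.3 and 84.1 TPM and 107, 139 and 114 TPM (log2 0.49, adjusted p = 0.0146). Neither pair of groups overlapped; Gpnmb passed in all 12 refits but not under quantile normalization, and Clec7a lost the call without CSF-1 library 2 or IL-34 library 2. The other higher members were Atp6v0d2, Ctsz, Ctsb, Cd63 and Cd68, already described with lysosomal genes. Lpl, lipoprotein lipase, was lower, from 4880, 4500 and 4390 TPM to 3890, 3500 and 3430 TPM (log2 -0.35, adjusted p = 0.0172), and lost the call without CSF-1 library 1 or IL-34 library 2 or 3.

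Ch25h was the lower member of that list with the smallest adjusted p. It encodes cholesterol 25-hydroxylase, which makes the oxysterol 25-hydroxycholesterol. The gene stood at 116, 115 and 121 TPM with CSF-1 and at 61.9, 50.7 and 61.7 TPM with IL-34, a 2.03-fold difference (log2 -1.01, SE 0.0909, adjusted p = 0.000203, and -0.96, adjusted p = 2.63e-05 on long transcripts). The groups were far apart, and the call held, also without IL-34 libraries 1 and 2 together. Its promoter window is shown because it was among the 1.79% of all windows with an exact cyclic AMP response element, TGACGTCA, a sequence that is its own reverse complement. The element was chosen after the values were seen, and 16 of 419 lower genes with a window held it (3.82%), as did 320 of 8404 measured genes (3.81%). The window lies on the minus strand at chr19:34475099-34475398 of GRCm38.p6, and the match begins 61 bases before the start.
Ch25h: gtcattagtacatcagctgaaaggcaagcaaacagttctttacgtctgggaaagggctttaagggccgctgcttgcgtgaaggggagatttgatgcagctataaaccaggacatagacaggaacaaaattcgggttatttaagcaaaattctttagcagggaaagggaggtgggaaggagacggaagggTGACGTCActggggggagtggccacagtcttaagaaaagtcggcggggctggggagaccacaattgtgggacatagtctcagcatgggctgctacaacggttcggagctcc

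Cholesterol synthesis and lipid handling showed small differences. Of 24 enzymes and regulators of cholesterol synthesis, 13 were higher on long transcripts, 2 in both fits, and 0 lower in either of these counts. Of all genes, 6.51% were higher and 6.78% lower on long transcripts, and 1.25 and 5.02% in both fits. Without any single CSF-1 library, and without IL-34 library 1 or 2, 0 of these genes were higher in both fits. Mvd, mevalonate decarboxylase, had 18.3, 19.0 and 17.8 TPM with CSF-1 and 23.6, 22.9 and 21.9 TPM with IL-34 (log2 0.30, adjusted p = 0.0264), and Ebp, a sterol isomerase, had a log2 difference of 0.45. Neither held. Among 32 LXR targets and genes of lipid handling, Soat1, which esterifies cholesterol, and Abcg1, which exports it, were higher (log2 0.25 and 0.43), Ch25h and Lpl lower, and the libraries overlapped for Soat1.

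Of 35 homeostatic microglial genes, 7 were lower and 1 higher, against 5.02 and 1.25% of all genes. Median-of-ratios scaling called 6 lower and 3 higher on all transcripts, and without IL-34 libraries 1 and 2 together 0 passed both fits and 3 were lower and 3 higher on long transcripts. Itgam, the integrin CD11b, had 392, 369 and 358 TPM with CSF-1 and 297, 256 and 270 TPM with IL-34 (log2 -0.44, adjusted p = 0.00853), with no overlap, and held, as did Rnase4, a secreted ribonuclease (log2 -0.39). Cx3cr1, the fractalkine receptor, had 350 to 368 TPM with CSF-1 and at most 290 TPM with IL-34 (log2 -0.46, adjusted p = 0.0299) and lost the call without any CSF-1 library, without IL-34 library 2 or 3 and under median-of-ratios scaling. Bin1, Gas6, Mef2a and Slco2b1 were the other lower members, and Entpd1, the ectonucleotidase CD39, the higher 1, at 18.1, 20.9 and 21.7 TPM against 25.5, 27.7 and 34.5 TPM (log2 0.51, adjusted p = 0.0288). None of these 5 held. The median of the list on long transcripts was 0.02, and Tmem119 had values of 17.7 to 20.4 and 18.3 to 19.9 TPM.

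Receptors for chemoattractants changed in both directions, 4 higher and 3 lower of 19, against 1.25 and 5.02% of all genes. Cxcr4, the receptor for CXCL12, rose from 27.7, 28.2 and 24.8 TPM to 37.6, 42.7 and 40.3 TPM (log2 0.56, SE 0.0817, adjusted p = 0.00372). Ptafr, the receptor for platelet-activating factor, rose from 19.3, 20.1 and 19.3 TPM to 24.3, 25.2 and 25.7 TPM (log2 0.34, adjusted p = 0.0072). C5ar1, the receptor for the complement fragment C5a, fell from 1410, 1330 and 1330 TPM to 1040, 1050 and 1130 TPM (log2 -0.34, adjusted p = 0.004). The groups did not overlap for any of these 3 genes, and all 3 held. S1pr1, a sphingosine 1-phosphate receptor, and Ccrl2, a decoy receptor, were higher, and the nucleotide receptor P2ry6 and Cx3cr1 lower, without holding. With C5ar1 and Itgam, properdin, encoded by Cfp and known to stabilise the complement convertase, completed the 3 lower genes of 17 in the complement list (168, 162 and 165 TPM against 134, 109 and 132 TPM), and it held.

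Among 18 chemokines and cytokines 1 was higher and 1 lower, against 1.25 and 5.02% of all genes. The lower one was Ccl2, a chemokine that draws monocytes. It had 32.2, 29.5 and 35.1 TPM with CSF-1 and 19.5, 18 and 16.1 TPM with IL-34, without overlap (log2 -0.82, adjusted p = 0.00228), and held. Transcripts of 1000 nt or more held 69.1, 37.8 and 38.0% of its TPM in the CSF-1 libraries and 19.5, 14.4 and 35.2% in the IL-34 libraries, and its value on them alone was -1.74. Cxcl16, a scavenger and chemokine, was narrowly spread and higher, from 363, 363 and 364 TPM to 423, 415 and 419 TPM (log2 0.21, adjusted p = 0.0157), and lost the call without CSF-1 library 1 or IL-34 library 2.

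Innate sensing genes split, with 3 higher and 3 lower of 40, against 1.25 and 5.02% of all genes. Ptgs2, the prostaglandin-forming enzyme COX-2, fell from 30.5, 29.8 and 27.4 TPM to 17.0, 16.6 and 18.6 TPM (log2 -0.72, SE 0.078, adjusted p = 0.000787). Nlrp3, an inflammasome sensor, fell from 25.6, 24.7 and 24.8 TPM to 18.6, 15.6 and 16.8 TPM (log2 -0.53, adjusted p = 0.00472). Cd83, a surface protein of activated antigen-presenting cells, rose from 105, 106 and 99.9 TPM to 126, 158 and 164 TPM (log2 0.51, adjusted p = 0.00636). None of the 3 overlapped between ligands and all held. Cd14, a co-receptor for lipopolysaccharide, passed with a log2 difference of 0.20 and Marcksl1, a regulator of the actin cytoskeleton, with -0.37, and neither held. Pycard, the inflammasome adaptor ASC, read 23.8, 25.3 and 24.3 TPM with CSF-1 and 67.1, 83.6 and 28.0 TPM with IL-34, and the call was lost without any single CSF-1 library and without IL-34 library 1 or 2. Transcripts of 1000 nt or more held 100% of its TPM in the CSF-1 libraries and in IL-34 library 3, but 40.2 and 30.8% in IL-34 libraries 1 and 2, and the log2 difference of 1.11 on all transcripts was 0.30 on long ones.

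Interferon response genes did not pass in both fits. Of 50, 0 were higher or lower in both, while 13 were higher and 0 lower on long transcripts and 2 higher and 1 lower of 53 on all transcripts. Of all genes, 1.25% were higher and 5.02% lower in both fits. The shares were 6.51 and 6.78% on long transcripts and 3 and 9.82% on all transcripts. Of 19 genes of antigen presentation, 1 was higher, Cd74, the invariant chain (log2 0.27, adjusted p = 0.0277), without holding.

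Of 32 genes of glycolysis and the hypoxia response, 6 were lower and 1 higher, against 5.02 and 1.25% of all genes, and 25 had no call. Pkm, pyruvate kinase, went from 4440, 4380 and 4150 TPM to 3590, 3450 and 3560 TPM (log2 -0.29, adjusted p = 0.00687), with no overlap, and held. Pdk1, a kinase that shuts pyruvate out of mitochondria, had 43.7, 43.3 and 41.7 TPM against 21.4, 24.9 and 28.6 TPM (log2 -0.77, adjusted p = 0.00248, and -0.39 on long transcripts), and lost the call without IL-34 library 2. Pgk1, Tpi1, Eno1 and P4ha1 were the other lower members, and Bnip3l, a mitophagy receptor, the higher 1. Of 35 genes of the TCA cycle and fatty acid oxidation, 3 were lower, among them Idh3a and Cs, and 0 higher, a count near the share of all genes, and of 5 genes encoded in mitochondrial DNA none passed in either direction in both fits.

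Stress and redox programmes differed by gene. Of 24 NRF2 targets, 6 were lower and 2 higher, and the shares of all genes, 5.02% lower and 1.25% higher, stand beside the other counts of this paragraph too. Hmox1, the haem-degrading enzyme, fell from 2180, 2190 and 1970 TPM to 1680, 1540 and 1460 TPM (log2 -0.44, SE 0.0659, adjusted p = 0.00461) and held, also without IL-34 libraries 1 and 2. Abcc1, an exporter of glutathione conjugates, was lower and held (log2 -0.37). The glutathione transferases Mgst1 and Gstm1 moved the other way, with Mgst1 at 111, 105 and 131 TPM against 159, 175 and 174 TPM (log2 0.55, adjusted p = 0.0126) and Gstm1 at 112, 94.9 and 91.3 TPM against 124, 140 and 127 TPM (log2 0.39, adjusted p = 0.017). Groups did not overlap for either, but both lost the call without IL-34 library 2, and Mgst1 also without CSF-1 library 1 and Gstm1 without CSF-1 library 2. Of 23 ER chaperones and unfolded protein genes, 5 were lower and 0 higher (Calr, P4hb, Pdia3, Hyou1 and Hsp90b1), of 16 heat shock genes 3 and 0 (Hspa8, Hsp90ab1 and Ahsa1), and none of these 8 held. Of 33 genes of the ATF4 amino acid response, 4 were lower and 0 higher, and the amino acid transporter Slc7a5 (log2 -0.53) and the isoleucine tRNA synthetase Iars (log2 -0.49) held.

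Among secreted factors and regulators, Adam8, a membrane metalloproteinase of leukocytes, fell from 2260, 2300 and 2180 TPM to 1660, 1520 and 1580 TPM (log2 -0.50, SE 0.0605, adjusted p = 0.00151) and held, 1 of 3 lower and 0 higher of 20 in the urokinase and metalloproteinase list, with Plau and Plaur. Of 29 genes of the TGF-beta and IGF axes and growth factors, Igfbp4, Tgfbi and Pdgfb were lower and 0 higher, and Tgfbi, an extracellular matrix protein, and Pdgfb, a growth factor, held. Of 14 integrins, Itgam, Itga6 and Itgav were lower and 0 higher, against 5.02 and 1.25% of all genes, shares that stand beside each count of this paragraph. Of 32 transcription factors of the macrophage lineage, 3 were higher and 4 lower. Id3, an inhibitor of helix-loop-helix factors, rose from 46.5, 43.7 and 42.3 TPM to 70.6, 65.2 and 60.7 TPM (log2 0.56, SE 0.0766, adjusted p = 0.00299) without overlap and held, and Egr1 and Bhlhe40 were the other higher ones. Mef2a, Irf5 and Ets2 were lower beside Klf2, without holding. Of 13 potassium and proton channels 1 was lower, Kcnn4, a calcium-activated potassium channel, at 79.1, 76.8 and 86.9 TPM against 69.6, 63.4 and 60.8 TPM (log2 -0.32, adjusted p = 0.0154), and it did not hold.

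Some of the largest differences belong to genes outside these lists. Pagr1a, a subunit of histone methyltransferase complexes, was listed at 17.6, 19.4 and 24.6 TPM with CSF-1 and at 4.58e-08, 0.000222 and 3.67 TPM with IL-34, so no fold is given. The call held, also without IL-34 libraries 1 and 2 together. Ramp2, a partner of the calcitonin-like receptor, had 26.5, 21.8 and 22.2 TPM and 6.16, 3.95 and 13.4 TPM (log2 -1.61, adjusted p = 0.0146), wide within the IL-34 group, and lost the call without CSF-1 library 1 or IL-34 library 2. Calcrl, the receptor that RAMP2 accompanies, chosen after its values were seen, went from 43.6, 36.7 and 37.8 TPM to 22.8, 22.1 and 23.2 TPM (log2 -0.77, adjusted p = 0.00254) without overlap and held. Nptx1, neuronal pentraxin 1, had 10.1, 9.12 and 9.10 TPM against 4.57, 4.89 and 3.96 TPM (log2 -0.93, adjusted p = 0.00453), and held. The kinase gene Dmpk, the helicase gene Dhx9 and Iffo2 had log2 differences of -1.37, -1.04 and -0.91 and held. Tubb2b (log2 -0.86) and Rpl5 (log2 -0.83) did not hold.

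Among higher genes outside the lists, Hist1h2bc, a histone H2B gene, stood at 54.8, 72.9 and 76.5 TPM with CSF-1 and 154, 145 and 132 TPM with IL-34 (2.11-fold, log2 1.08, SE 0.164, adjusted p = 0.00461). The groups did not overlap and the call held, but reads may be shared with related histone genes. Atrip, a DNA damage checkpoint protein, was low, at 2.66, 2.81 and 2.53 TPM and 10.6, 9.03 and 6.25 TPM (log2 1.37, adjusted p = 0.0232), and lost the call without any CSF-1 library and without IL-34 library 1 or 2. The ribonuclease gene Rnaset2b (log2 0.65), which has a near-identical copy, the zinc finger gene Zfp362 (log2 0.60) and Cdk2ap2 (log2 0.61) did not hold. For Minos1, H2afj, Txnl4a and the glutamine synthetase gene Glul, values of 0.99, 0.80, 0.77 and 0.73 on all transcripts shrank to 0.39, 0.31, 0.28 and 0.21 on long ones, and in IL-34 libraries 1 and 2 between 37.6 and 58.3% of their TPM came from transcripts of 1000 nt or more, against 58.5 to 100% in the CSF-1 libraries. None of these 4 held.

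In forebrain the same contrast ran mostly the same way. Of the 703 genes, 637 (90.6%) had the same sign in forebrain, against 64.8% of all genes measured in both fits, and their median forebrain differences were 0.20 for the higher and -0.19 for the lower genes. The forebrain fit on all transcripts called 149 genes (1.2%), 146 of them measured in both cerebellar fits, and that on long transcripts 881 (7.67%). Of the 703, 103 passed there with the same sign, which is 14.7% of the cerebellar calls and 70.5% of those 146. Among the 12 ERK genes, 12 were lower in forebrain, 5 passed there in both fits (Ccnd1, Plau, Plaur, Myc and Dusp5) and 11 on long transcripts. Ccnd1 had 37.8, 46.7 and 50.9 TPM with CSF-1 and 24.7, 22.7 and 22.2 TPM with IL-34 in forebrain, where the groups did not overlap either.

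**Figure D4:**
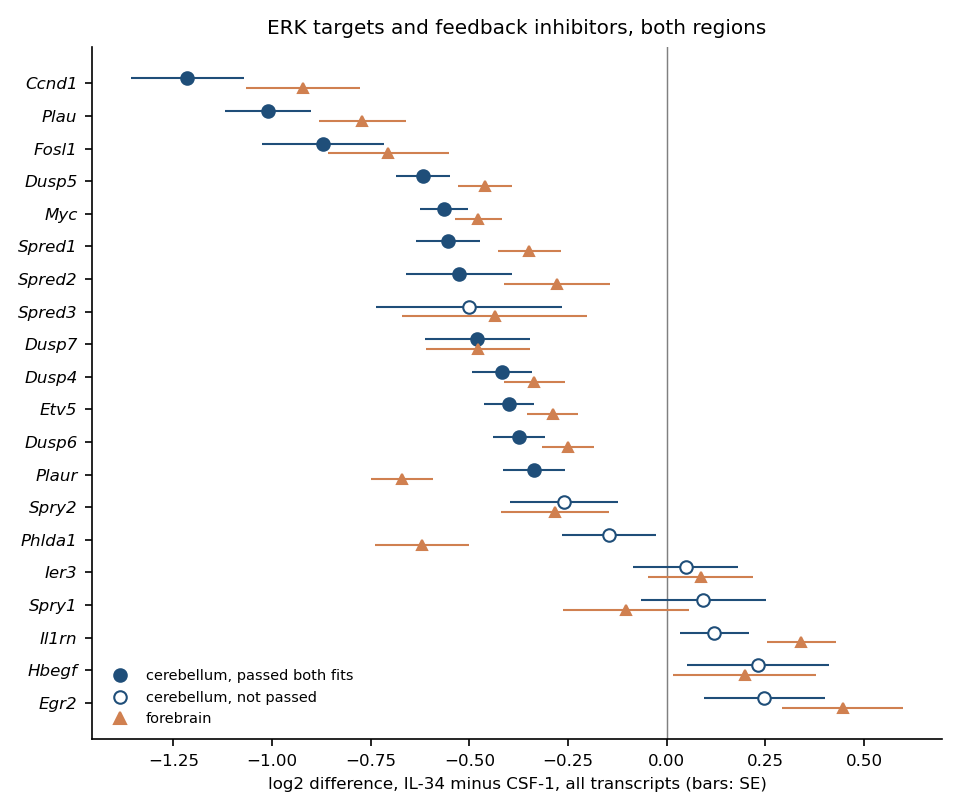
Log2 difference between IL-34 and CSF-1 on all transcripts, with its SE (horizontal axis), for 20 ERK targets and feedback inhibitors (rows), in cerebellum (blue, filled where both fits passed) and forebrain (orange). All 12 filled points and their forebrain values lie below 0, from Ccnd1 at -1.21 and -0.92 to Plaur at -0.34 and -0.67.

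Whether a difference was larger in cerebellum was asked with the interaction of region and ligand. On all transcripts 18 of 12419 genes passed (0.145%), 15 higher (0.121%) and 3 lower (0.0242%), and 1505 had an unadjusted p under 0.05; on long transcripts limma called 0 of 11486, and 1378 had an unadjusted p under 0.05. None of the 12 ERK genes passed, the smallest adjusted p among them being 0.322 for Plaur, which does not show that the regions respond alike. Of the 703 genes, 3 passed the interaction on all transcripts, namely Nup98, Plekhm2 and A230004M16Rik. Nup98, a nuclear pore protein, had 53.5, 48.5 and 49.4 TPM with CSF-1 and 33.2, 31.8 and 34 TPM with IL-34 in cerebellum, and forebrain values of 36.9 to 38.3 and 35.1 to 39.0 TPM. Its cerebellar value was -0.60 on all transcripts and -0.15 on long ones. The cerebellar call of Nup98 was lost without any single CSF-1 library and without IL-34 library 2 or 3, and that of Plekhm2 without CSF-1 library 1 or IL-34 library 2. Plekhm2, which links lysosomes to kinesin, had 32.9, 36.8 and 31.1 TPM against 43.0, 52.3 and 44.1 TPM in cerebellum and 34.8 to 38.4 against 25.9 to 29.4 TPM in forebrain, opposite directions without overlap in either region (interaction 0.81, adjusted p = 0.0393, and 0.55, adjusted p = 0.273 on long transcripts).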

How the data were processed

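The deposited table holds TPM per Ensembl transcript, which the authors estimated from reads of 12 libraries; kallisto 0.43.0 and the build GRCm38 are named per the submitters' processing notes. TPM keeps no read depth, so depth per library is unknown and no counting interval is given. Of 115879 transcripts, 98.6% matched GENCODE M21, which gave lengths, GC content and gene positions. Symbols came with the deposited values. TPM was summed per gene and tested as log2(TPM + 1) with limma 3.58.1 in R 4.3.3, 4 group means sharing 1 spread (8 residual degrees of freedom, trended), in genes of at least 1 TPM in at least 3 libraries. Fold changes on this scale understate those of low genes. P-values were adjusted by Benjamini-Hochberg over all genes. The long-transcript fit kept transcripts of at least 1000 nt, rescaled them to the original total and removed lowess trends (span 0.3) of length and GC content. Tests were checked on simulated data. Nothing in the labels ties libraries to animals, so p-values measure only the spread between these samples.

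Genes named were, among those passed in both fits without overlap and at 5 TPM or more, the 15 largest differences in each direction, up to 4 members of each list by p on long transcripts, the 10 interactions of smallest p, and 6 genes of the receptor, leaving out predicted genes, clones and pseudogenes. Further list members were named after their values were seen. Members and lists were chosen with earlier results of these data known. Other scalings, filters, pseudocounts, length limits, weights and left-out libraries were tried. Promoter windows came from RefSeq. No 2 libraries held identical values. Some named genes are not reported here.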

Additional observations from a re-analysis of the deposited data

Results flagged for a closer look

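The response to the ligand differed between the regions on all transcripts in 10 named genes, by the interaction test in limma, given here as the cerebellar minus the forebrain log2 difference. In 6 of them, Atox1 (7.81), Cox8a (6.76), Mt1 (6.72), Mt2 (2.75), Tceb2 (5.61) and Wfdc17 (6.37), values were listed at 0 in all 3 CSF-1 cerebellar and all 6 forebrain libraries, so no fold is given. Their lengths were 511 to 550 nt, and the lowest percentile of length among transcripts at 5 TPM or more was 503, 491 and 580 nt in the IL-34 cerebellar libraries and 592 to 669 nt in the others. Atox1, a copper chaperone, had 275, 248 and 162 TPM in the IL-34 libraries, and Mt1, a metallothionein, 150, 150 and 50.1 TPM. None of these 6 was measured on long transcripts, and the part of recovery in these values was not tested.

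Focad (1.39) stood at 6.32, 5.37 and 5.89 TPM with CSF-1 and 19.9, 14.3 and 13.3 TPM with IL-34 in cerebellum, and on long transcripts its interaction was 0.01 (adjusted p = 0.989). Mrps5 (1.44), a mitochondrial ribosomal protein gene, had 21.7, 19.4 and 18.7 TPM and 40.1, 37.6 and 27.6 TPM, and 0.04 on long transcripts (adjusted p = 0.954). The interaction of Nup98 was -0.58 (-0.583) and on long transcripts -0.21 (adjusted p = 0.272), and that of Plekhm2 was 0.815 and 0.55 (adjusted p = 0.273).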

How the results depend on the processing

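The 703 genes passed in both fits became 109 with a replicate block (108 shared), 376 with the 6 cerebellar libraries alone and 38 without IL-34 libraries 1 and 2 together, an alternative chosen after seeing the data. Whether the replicate numbers pair the samples is not known. Between cerebellar libraries of the same number r was -0.0791, -0.0133 and -0.0813, and with 3 libraries per group these values cannot settle it. On all transcripts, 1593 calls became 830 with no filter on low values, 194 with the block, 778 with 6 libraries, 67 without IL-34 libraries 1 and 2, and 37 with each library's length floor, the length below which few transcripts were recovered, as a covariate, also chosen after seeing the data. On long transcripts, 1527 became 545 without IL-34 libraries 1 and 2. The 18 interactions became 8 with the block, 10 with the length floor and 0 on long transcripts. Leaving out single libraries gave 299 to 1769 calls on all transcripts, 818 to 1582 on long ones, 190 to 684 in both and 12 to 132 interactions, the last being highest without cerebellar IL-34 library 3 and at 29 without CSF-1 library 3. The cause of these shifts was not tested. Without IL-34 library 2 the fewest genes passed in each cerebellar count. The log2 fold change of Trem2, cerebellum, all transcripts, not called, changed sign to -0.00324 without IL-34 libraries 1 and 2 and to -0.0092 with the length floor. Of the values of single genes under the alternatives, 1786 kept direction and call, 433 lost the call and 2 changed sign. Of list medians, 41 moved and 734 did not. The interaction could not be computed from 6 libraries, and the length floor was not run on long transcripts. TPM keeps no depth, so what depth limits is unknown.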

Other observations

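Families outside the lists above were chosen after their values were seen, so their counts do not test them. Several had members that were lower with IL-34. Of 10 alpha and beta tubulins, 8 were lower and 0 higher in both fits, against 5.02 and 1.25% of all genes, with a median of -0.49 on all transcripts and -0.36 on long ones. Tubb6 stood at 266, 272 and 263 TPM with CSF-1 and 196, 198 and 189 TPM with IL-34, without overlap (log2 -0.46, adjusted p = 0.000164). Tuba1c had 356, 315 and 305 TPM against 201, 174 and 213 TPM (log2 -0.73, adjusted p = 0.00429), and both passed in all 12 refits, though reads may be shared among tubulin genes. Of 8 subunits of the CCT chaperonin, which folds tubulin and actin, 6 were lower and 0 higher, and Cct6a went from 324, 321 and 312 TPM to 244, 231 and 245 TPM. Of 64 ribosome assembly factors, 22 were lower and 0 higher, among them Ncl, nucleolin, at 219, 213 and 225 TPM against 150, 146 and 179 TPM. Of 20 nucleotide synthesis enzymes, 8 were lower and 0 higher, and of 23 importins and exportins, 7 and 0. Fewer of the lower members passed in all 12 refits. They were 6 tubulins, 3 CCT subunits, 3 ribosome assembly factors, 2 nucleotide synthesis enzymes and 1 of the importins and exportins. The CTP synthase gene Ctps had 19.0, 18.7 and 16.4 TPM against 10.9, 9.91 and 11.5 TPM (log2 -0.69, adjusted p = 0.00558).

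Other families moved less or the other way, and of all genes 1.25% were higher and 5.02% lower in both fits. Of 31 autophagy genes, 4 were higher and 0 lower, and Map1lc3b, which encodes the autophagosome protein LC3B, rose from 145, 151 and 140 TPM to 195, 191 and 189 TPM (log2 0.40, adjusted p = 0.00312). Of 11 C-type lectins, 3 were higher and 1 lower. Clec4a3 rose from 77.9, 70.8 and 75.7 TPM to 103, 109 and 109 TPM (log2 0.51), and Clec5a fell from 240, 212 and 206 TPM to 148, 155 and 167 TPM (log2 -0.48), both without overlap. Of 36 proteasome subunits, 0 were higher and 1 lower. Single genes that passed in all 12 refits included Pla2g7, a phospholipase that degrades platelet-activating factor, at 490, 441 and 442 TPM against 602, 620 and 622 TPM, and P2rx4, an ATP-gated channel, at 326, 370 and 363 TPM against 474, 499 and 464 TPM. Fcgr3, an activating Fc receptor, had 218, 228 and 212 TPM against 284, 328 and 288 TPM. Slc39a14, a zinc and iron importer, was lower, at 66.8, 62.8 and 64.4 TPM against 41.1, 33.7 and 38.1 TPM (log2 -0.77, adjusted p = 0.00111).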
